A study of Mus musculus with 12 samples.

Results

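The genes described here form the core of insulin signalling and glucose uptake. They are the insulin receptor Insr, its adaptors Irs1 and Irs2, the kinase subunit Pik3r1, the kinase Akt2, its substrate Tbc1d4, the glucose transporters Slc2a4 and Slc2a1, and the hexokinase Hk2. They were chosen by symbol, as 9 of the 18194 genes measured. Each was read from the probe set (a group of short array probes for one transcript) that named only that gene and had the highest mean over the 12 arrays, and its other probe sets served as a check. Total RNA of 6 groups of mice was hybridised to 2 Affymetrix arrays a group, called a and b. Wild-type C57BL/6 mice ate a regular diet or one in which 55% was fat. Those labelled Smad3-/-, called knockout below, ate the same diets, and their background was mixed, from C57BL/6 and NIH Black Swiss (Taconic). In a separate experiment, mice of the strain given as C57J/B6, already obese from diet, were given control IgG (13C4) or an anti-TGF-beta antibody (1D11). The injections were intraperitoneal, 3 a week for 8 weeks. Smad3 carries TGF-beta signals to the nucleus, and by its title the study asked if blockade of that pathway guards against obesity and diabetes. The labels give no tissue and no age. Genotype and strain background cannot be told apart in this design. Whether the 2 arrays of a group stand for different animals is not stated in the labels. The p-values below therefore rest on array-to-array spread, part or all of which may be technical.

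Insulin binds its receptor on fat and muscle cells, and the receptor phosphorylates the adaptors Irs1 and Irs2. These recruit phosphoinositide 3-kinase, which holds the regulatory subunit encoded by Pik3r1, and the lipid it makes activates Akt2. Akt2 phosphorylates Tbc1d4 (AS160), which otherwise holds vesicles with the transporter GLUT4, encoded by Slc2a4, inside the cell. GLUT4 then moves to the surface and lets glucose in, and Hk2 traps it as glucose 6-phosphate, while GLUT1, encoded by Slc2a1, serves uptake without insulin. Low adipose GLUT4 is a known feature of insulin-resistant obesity. The arrays measure RNA only, so receptor activity, phosphorylation and the position of GLUT4 in the cell are outside these data.

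The arrays carried the markers of fat. Adipoq, the adipocyte hormone adiponectin, lay between 13.01 and 14.18 log2 units on all 12 arrays, whose medians over all probe sets were 6.03 to 6.39. The 4 antibody arrays had SDs of 2.15 to 2.17 over probe sets against 1.64 to 1.74 on the 8 diet arrays, so levels were compared only within an experiment. Smad3 read 8.86 to 8.95 on the wild-type arrays and 9.03 to 9.17 on those labelled knockout. The position of this probe set relative to the disrupted sequence is not stated in the labels, so it checks nothing. Other tissues differed between the groups. The summed level of 16 skeletal muscle markers was 14.91 and 15.04 log2 units on the knockout high fat arrays and 15.25 and 15.26 on the antibody arrays, against 10.58 to 12.15 on the others. That of 7 epididymis markers was 15.83 and 15.89 on the knockout regular diet arrays and 8.59 to 11.42 on the other diet arrays. That of 6 smooth muscle markers was 14.92 and 14.96 on the wild-type regular diet arrays and 12.04 to 12.72 on the other diet arrays. That of 10 brown adipocyte markers was 13.64 to 14.04 on the knockout arrays against 10.07 to 10.17 on the wild-type arrays, and 14.53 and 14.56 with the antibody against 11.06 and 10.99 with IgG. The 3' minus 5' difference of the Gapdh probe sets, which grows as RNA degrades, was 0.12 and 0.14 on the wild-type regular diet arrays and 0.28 to 0.50 on the other diet arrays. In such bulk RNA, fewer cells of a type and less RNA per cell cannot be told apart.

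**Figure D1:**
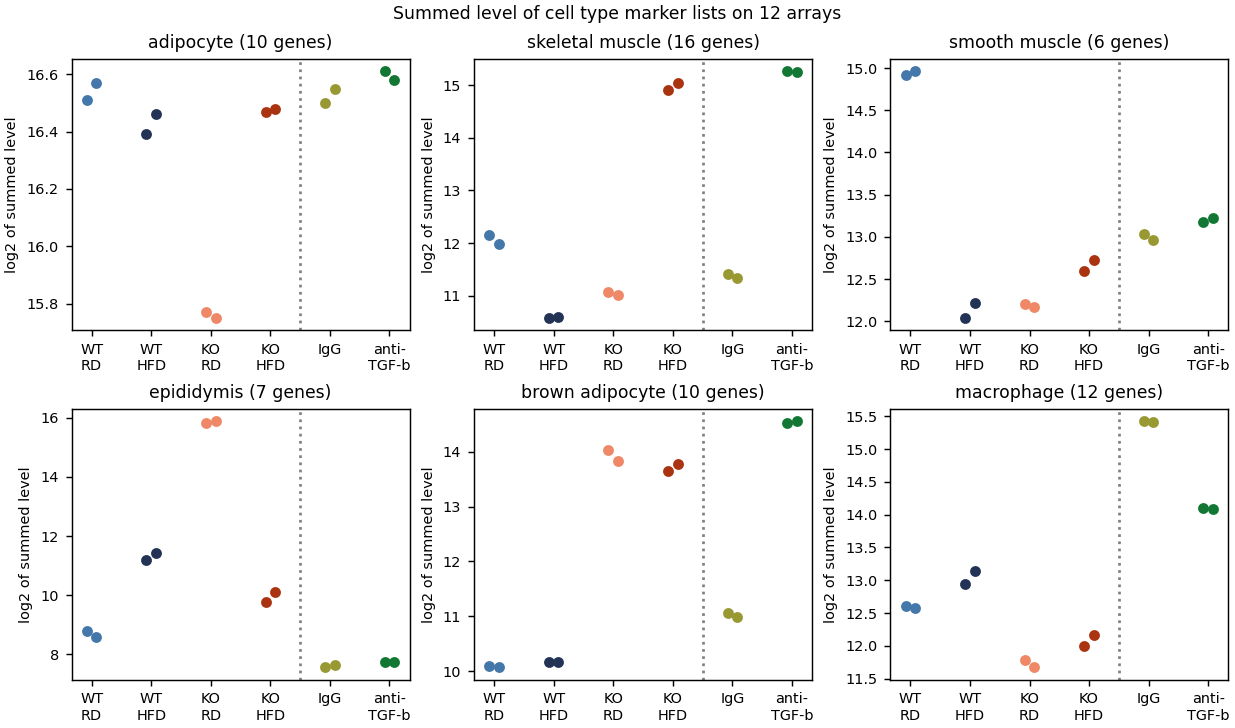
Summed level (log2 of the sum of linear values, vertical axes) of 6 marker lists in the 6 groups, with 1 point per array and a dotted line between the 2 experiments. Skeletal muscle markers were high on the knockout high fat and the antibody arrays, epididymis markers on the knockout regular diet arrays, and smooth muscle markers on the wild-type regular diet arrays.

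All differences below are log2 differences from limma, with Benjamini-Hochberg adjusted p over the 18194 genes, and a gene is said to have risen, fallen or changed where this p was under 0.05. Their SEs were 0.11 to 0.13 for the 9 genes in comparisons of 2 groups and 0.15 to 0.19 for the interaction, which is the diet difference in the knockout minus that in wild type. Where arrays of 2 groups are said not to overlap, this describes the readings and says little with 2 arrays a group. For genotype on high fat diet, the Tbc1d4 arrays did not overlap at a difference of 0.02 (adjusted p = 0.97). How often this held over all genes was not counted. Testing against a change of 1.2-fold instead of 0 ended 11 of the 30 calls among the 9 genes. These were Irs2 for diet in wild type, Insr and Hk2 for diet in the knockout, Irs1 and Irs2 for genotype on regular diet, Irs1 and Hk2 for genotype on high fat diet, Hk2 for the interaction (adjusted p = 0.0635), and Slc2a4 (adjusted p = 0.215), Slc2a1 and Irs2 (adjusted p = 0.0796) for the antibody.

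Insr, the receptor, differed by at most 0.39 log2 between diets or genotypes and was higher with the antibody. On the diet arrays it read 8.02 and 7.96 in wild type on regular diet, 8.15 and 8.30 in wild type on high fat diet, 7.63 and 7.77 in the knockout on regular diet, and 8.10 and 8.09 in the knockout on high fat diet. In the obese mice it read 9.48 and 9.48 with IgG and 10.00 and 10.18 with the antibody. The antibody arrays both lay above the IgG arrays, and the knockout regular diet arrays were the lowest of the diet experiment. The antibody difference was 0.61 (adjusted p = 9.79e-05), or 1.53-fold, whereas the other Insr probe sets, at means of 6.27 and 4.67, differed by 0.14 (adjusted p = 0.553) and 0.23 (adjusted p = 0.266). With the high fat diet Insr rose in the knockout by 0.39 (adjusted p = 0.0114). Its second probe set put that at 0.07 (adjusted p = 0.866), and the call was lost without knockout regular diet array a (0.32, adjusted p = 0.106) or either high fat array (0.38 and 0.40, adjusted p = 0.0648 and 0.0623). In wild type the diet difference was 0.23 (95% interval 0.01 to 0.46, adjusted p = 0.226), and the interaction was 0.16 (-0.16 to 0.48, adjusted p = 0.58). On regular diet the knockout was at -0.29 (-0.51 to -0.06, adjusted p = 0.0578), and this passed with arrays centred on their medians (-0.35, adjusted p = 0.0242). There the other probe sets were at 0.16 (adjusted p = 0.525) and 0.18 (adjusted p = 0.434).

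Irs1, the main adaptor of fat and muscle, was highest on the knockout high fat arrays within the diet experiment and on the antibody arrays within the other. It read 9.08 and 9.12 in wild type on regular diet, 8.79 and 9.06 in wild type on high fat diet, 8.86 and 8.46 in the knockout on regular diet, and 9.34 and 9.42 in the knockout on high fat diet. With IgG it read 9.57 and 9.45 and with the antibody 10.33 and 10.45. Neither the knockout high fat arrays nor the antibody arrays overlapped their comparison groups. Irs1 rose by 0.88 with the antibody (adjusted p = 2.21e-06, 1.84-fold) and by 0.72 with the high fat diet in the knockout (adjusted p = 4.87e-05). In wild type the diet difference was -0.17 (95% interval -0.42 to 0.08, adjusted p = 0.50), and the interaction of 0.90 passed (adjusted p = 0.000233). Irs1 was lower in the knockout on regular diet by 0.44 (log2 difference -0.44, adjusted p = 0.00718) and higher on high fat diet by 0.46 (adjusted p = 0.0116). Both genotype calls rested on single arrays. The first was lost without wild-type array b (-0.42, adjusted p = 0.0578) or knockout array b (-0.24, adjusted p = 0.229) and under quantile normalization (-0.24, adjusted p = 0.126). The second was lost without wild-type array a (0.32, adjusted p = 0.214) or knockout array b (0.42, adjusted p = 0.109).

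Irs2, the other adaptor, is prominent in liver and islets and present in fat. It read 7.94 and 7.73 in wild type on regular diet, 7.51 and 7.40 in wild type on high fat diet, 7.43 and 7.46 in the knockout on regular diet, and 7.43 and 7.47 in the knockout on high fat diet. The wild-type regular diet arrays stood above the other 6, which lay within 7.40 to 7.51. In the obese mice Irs2 read 9.93 and 10.03 with IgG and 10.67 and 10.41 with the antibody, a rise of 0.56 (adjusted p = 0.000523). It fell with the high fat diet in wild type by 0.38 (adjusted p = 0.0293) and was lower in the knockout on regular diet, at -0.39 (adjusted p = 0.0114). The first call was lost without wild-type regular diet array a (-0.28, adjusted p = 0.341) or high fat array a or b (-0.43 and -0.33, adjusted p = 0.0573 and 0.176), and without an intensity trend in the fit (adjusted p = 0.0619). The second was lost without wild-type array a (-0.29, adjusted p = 0.179) or knockout array a (-0.38, adjusted p = 0.0524). In the knockout the diet difference was 0.01 (95% interval -0.23 to 0.24). The interaction was 0.39 (0.05 to 0.72, adjusted p = 0.107).

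The promoters of Irs1, Irs2 and Hk2 are printed, as some of the genes that rose with the antibody. Irs1 and Hk2 also had the highest correlation of any pair of the 9 genes (Pearson r = 0.91 over the 12 arrays, each centred on its experiment's mean). A window was held in RefSeq (GRCm38.p6) for 7 of the 9 genes, with 4 windows for Akt2, 2 for Pik3r1 and 1 for each of the other 5, or 11 in all. The 250 bases before the transcript start are given 5′ to 3′ on the gene's strand, and capitals mark matches on either strand to an E-box (CACGTG), the CCAAT box, the Sp1-type box GGGCGG or the core of a cyclic AMP element (TGACGT).
Irs1 promoter, chr1:82291440-82291689, minus strand: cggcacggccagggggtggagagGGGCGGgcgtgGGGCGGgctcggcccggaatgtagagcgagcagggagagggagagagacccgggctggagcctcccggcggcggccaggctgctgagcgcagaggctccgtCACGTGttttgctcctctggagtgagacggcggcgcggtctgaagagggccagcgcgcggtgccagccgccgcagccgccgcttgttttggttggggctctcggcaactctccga
Irs2 promoter, chr8:11008930-11009179, minus strand: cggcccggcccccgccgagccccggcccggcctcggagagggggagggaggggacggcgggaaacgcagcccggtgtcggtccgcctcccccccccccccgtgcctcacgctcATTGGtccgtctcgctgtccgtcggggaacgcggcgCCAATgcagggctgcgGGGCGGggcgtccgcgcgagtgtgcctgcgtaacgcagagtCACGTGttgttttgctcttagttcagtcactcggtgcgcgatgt
Hk2 promoter, chr6:82774455-82774704, minus strand: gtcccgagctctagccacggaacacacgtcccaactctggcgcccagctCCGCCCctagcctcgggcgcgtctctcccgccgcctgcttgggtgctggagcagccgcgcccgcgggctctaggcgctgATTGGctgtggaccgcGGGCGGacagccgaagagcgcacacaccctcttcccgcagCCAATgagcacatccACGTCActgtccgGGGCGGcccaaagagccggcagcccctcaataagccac
Irs1 and Irs2 each held 1 CACGTG, which was in 6.0% of all 32851 windows of this length and in none of the other 5 genes with a window. CCAAT was found 2 times in Irs2, 2 times in Hk2 and 1 time in Pik3r1 (33.8% of all windows held it). GGGCGG was in 7 of the 11 windows, 1 for each gene (32.7% of all windows). TGACGT was found 1 time, in Hk2 (6.5% of all windows). Slc2a1, which also rose with the antibody but is not printed, held 2 GGGCGG and none of the other motifs. A match describes letters and is not a bound site.

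Pik3r1, the regulatory subunit that docks the lipid kinase on the adaptors, was highest on the wild-type regular diet arrays of its experiment. It read 9.91 and 9.63 there, 8.89 and 8.46 in wild type on high fat diet, 8.92 and 8.63 in the knockout on regular diet, and 8.79 and 9.01 in the knockout on high fat diet. The last 6 arrays overlapped among themselves and lay below the first 2. Pik3r1 fell with the high fat diet in wild type by 1.10 (adjusted p = 3.22e-07, 2.14-fold) and was lower in the knockout on regular diet, at -1.0 (adjusted p = 5.87e-07). In the knockout the diet difference was 0.12 (95% interval -0.14 to 0.39), and the interaction of 1.22 passed (adjusted p = 8.68e-06). The second Pik3r1 probe set fell with diet in wild type by 0.82 (adjusted p = 0.000424) and the third by 1.86 (adjusted p = 7.18e-09), while the fourth, the dimmest, differed by -0.16 (adjusted p = 0.77). The third also rose with diet in the knockout by 0.93 (adjusted p = 0.00022) and was higher in the knockout on high fat diet by 1.02 (adjusted p = 0.000124), differences that the brightest put at 0.12 and 0.22. With IgG Pik3r1 read 10.66 and 10.65 and with the antibody 10.93 and 10.95. That difference of 0.29 missed the threshold (95% interval 0.02 to 0.55, adjusted p = 0.115). It passed when the 4 arrays of that experiment were fitted alone (adjusted p = 0.00352).

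Akt2, the Akt kinase that mediates the metabolic effects of insulin, was lowest on the knockout regular diet arrays. It read 10.82 and 10.72 in wild type on regular diet, 10.90 and 11.08 in wild type on high fat diet, 10.37 and 9.98 in the knockout on regular diet, and 11.27 and 11.27 in the knockout on high fat diet. No 2 of these groups overlapped. Akt2 was lower in the knockout on regular diet, at -0.60 (adjusted p = 0.000178), and rose with the high fat diet in the knockout by 1.10 (adjusted p = 1.91e-08, 2.14-fold). In wild type the diet difference was 0.22 (95% interval -0.01 to 0.45, adjusted p = 0.294), which passed under quantile normalization (0.33, adjusted p = 0.00799) but was -0.17 on the second probe set (adjusted p = 0.541) and 0.03 as the mean of the probe sets (adjusted p = 0.911). The interaction of 0.88 passed (adjusted p = 0.000133, and 0.46 at adjusted p = 0.00505 under that normalization). The second probe set followed in the knockout, at 1.04 (adjusted p = 1.93e-07), and was also higher in the knockout on high fat diet by 0.44 (adjusted p = 0.0161), where the brightest gave 0.28 (adjusted p = 0.128). The third, at a mean of 6.92, differed by -0.05 to 0.09 in the 6 comparisons. With IgG Akt2 read 11.54 and 11.38 and with the antibody 11.73 and 11.79, a difference of 0.30 (95% interval 0.06 to 0.53, adjusted p = 0.0574). There the second probe set passed at 0.46 (adjusted p = 0.00473), as did the brightest under quantile normalization (0.37, adjusted p = 0.00212).

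Tbc1d4, the brake on GLUT4 vesicles, showed the same step as Pik3r1 on its chosen probe set, the brightest by mean over both experiments. It read 7.79 and 7.79 in wild type on regular diet, 6.95 and 6.94 in wild type on high fat diet, 6.76 and 6.94 in the knockout on regular diet, and 6.96 and 6.97 in the knockout on high fat diet. The first 2 arrays stood above the other 6. It fell with the high fat diet in wild type by 0.84 (adjusted p = 3.85e-06), was lower in the knockout on regular diet, at -0.93 (adjusted p = 2.32e-07), and had an interaction of 0.95 (adjusted p = 5.5e-05). The second Tbc1d4 probe set, at a mean of 7.59, was not called in any of these comparisons. It read 7.27 and 7.58, 7.42 and 7.37, 7.22 and 7.18, and 7.54 and 7.37 in the same order of groups. In every diet group except wild type on regular diet it thus read above the chosen probe set. The differences of the second probe set were -0.03 (adjusted p = 0.96), -0.22 (adjusted p = 0.258) and 0.28 (adjusted p = 0.391) in these 3 comparisons. The mean of both probe sets gave -0.43, -0.58 and 0.61, all called. With IgG the brightest read 8.79 and 8.78 and with the antibody 8.88 and 8.89, a difference of 0.10 (95% interval -0.14 to 0.33). On the diet arrays the chosen probe sets of Tbc1d4, Pik3r1 and Irs2 read highest in wild type on regular diet, where the smooth muscle sum was also the highest. The part of smooth muscle RNA in these levels was not tested.

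**Figure D2:**
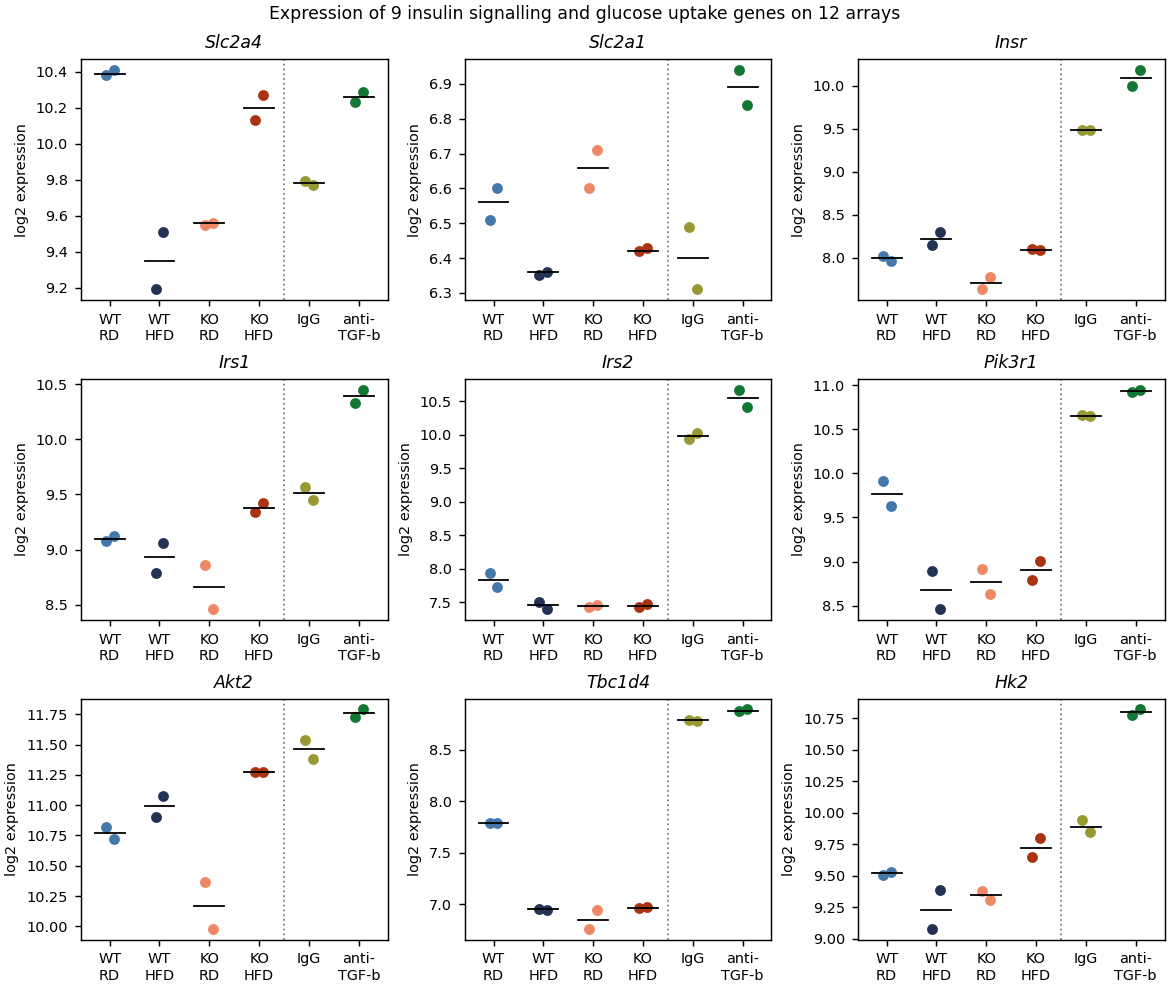
Log2 expression (vertical axes, each with its own range) of the 9 genes on every array, with 1 point per array, a bar at the group mean and a dotted line between the 2 experiments. WT is wild type, KO knockout, RD regular diet and HFD high fat diet. Slc2a4 was high on the wild-type regular diet and knockout high fat arrays, Pik3r1 and Tbc1d4 on the wild-type regular diet arrays, and Akt2 was low on the knockout regular diet arrays.

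Slc2a4, which encodes the insulin-responsive transporter GLUT4, moved in opposite directions with the high fat diet in the 2 genotypes. It read 10.38 and 10.41 in wild type on regular diet and 9.19 and 9.51 in wild type on high fat diet. In the knockout it read 9.55 and 9.56 on regular diet and 10.13 and 10.27 on high fat diet. The order of the groups was wild type on regular diet, knockout on high fat diet, knockout on regular diet and wild type on high fat diet, with no overlap between neighbours, although the last 2 groups lay close (9.55 against 9.51 on their nearest arrays). Slc2a4 fell in wild type by 1.04 (adjusted p = 2.46e-08, 2.06-fold) and rose in the knockout by 0.64 (adjusted p = 4.54e-05, 1.56-fold), with an interaction of 1.68 (95% interval 1.37 to 1.99, adjusted p = 1.18e-09). The second probe set gave -1.23 (adjusted p = 1.96e-09), 0.45 (adjusted p = 0.00304) and 1.69 (adjusted p = 2.3e-09). Against wild type, the knockout was at -0.84 on regular diet (adjusted p = 4.73e-07) and at 0.85 on high fat diet (adjusted p = 1.17e-06). With IgG Slc2a4 read 9.79 and 9.77 and with the antibody 10.23 and 10.29, a rise of 0.48 (adjusted p = 0.00122, 1.39-fold), and the second probe set gave 0.56 (adjusted p = 0.00021). Leaving out any 1 array ended none of these 6 calls. Slc2a4 is also expressed in skeletal muscle, and the groups in which it was higher on high fat diet or with the antibody were those with the high muscle sums given above. On the diet arrays it was highest in wild type on regular diet, where the muscle sum was 12.15 and 11.98 and the smooth muscle sum was the highest. The part of other tissues in these levels was not tested.

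**Figure D3:**
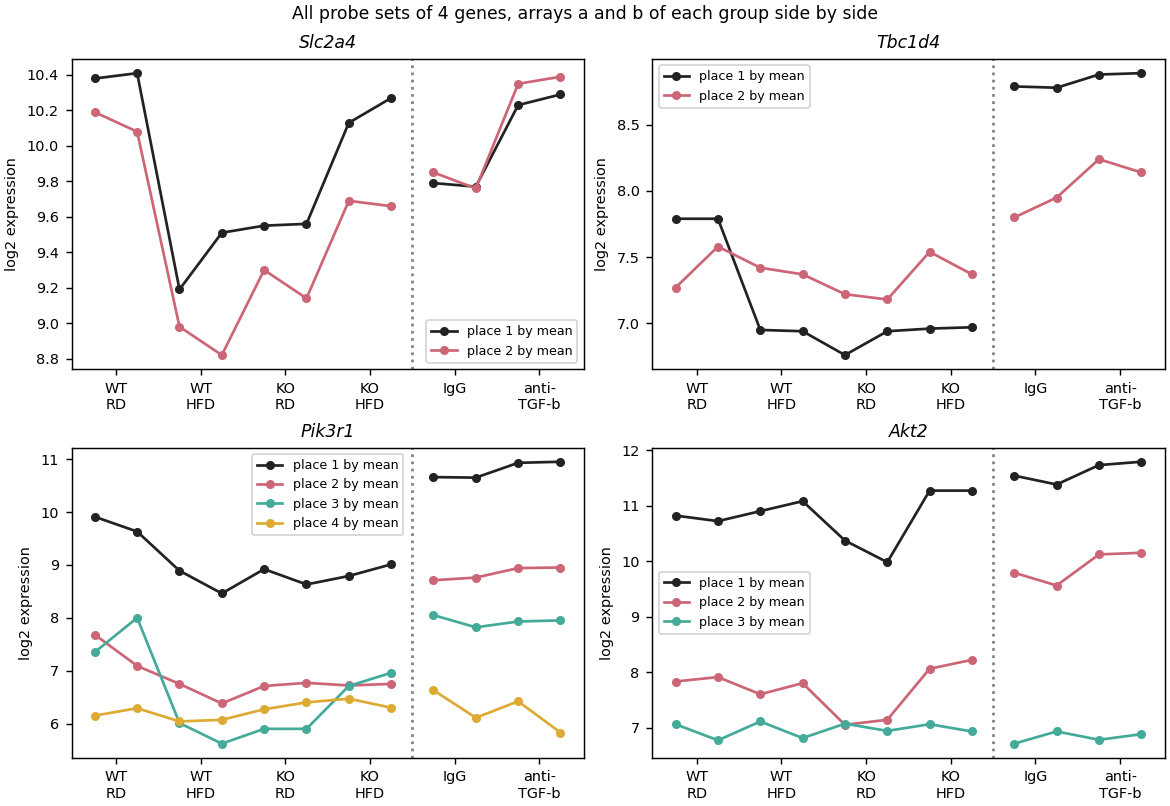
Log2 expression (vertical axes) of every probe set of Slc2a4, Tbc1d4, Pik3r1 and Akt2 on the 12 arrays, with arrays a and b of a group side by side, lines that join arrays within an experiment for the eye only, and a dotted line between the experiments. Both Slc2a4 probe sets fell and rose together, whereas the second Tbc1d4 probe set lacked the step of the first between wild type on regular diet and the other diet groups.

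Slc2a1, which encodes the transporter GLUT1, was close to the array medians and varied little. It read 6.51 and 6.60 in wild type on regular diet, 6.35 and 6.36 in wild type on high fat diet, 6.60 and 6.71 in the knockout on regular diet, and 6.42 and 6.43 in the knockout on high fat diet. The groups on regular diet lay above those on high fat diet, yet no difference passed. The diet difference was -0.20 in wild type (95% interval -0.47 to 0.07) and -0.23 in the knockout (-0.51 to 0.04). With the antibody it read 6.94 and 6.84, above the 6.49 and 6.31 with IgG, a rise of 0.49 (adjusted p = 0.00668). This call was lost without IgG array b (0.40, adjusted p = 0.08) or antibody array a (0.44, adjusted p = 0.0618) and under quantile normalization (0.36, adjusted p = 0.072). The other 2 Slc2a1 probe sets rose with the antibody by 0.64 (adjusted p = 0.00325) and 0.68 (adjusted p = 0.00855). The second read 6.99 and 6.97 with IgG and 7.83 and 7.42 with the antibody, above the chosen one on every array of that experiment. The third read 6.84 and 6.21 with IgG and 7.06 and 7.35 with the antibody.

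Hk2, the insulin-regulated hexokinase of fat and muscle, had its widest difference with the antibody. It read 9.94 and 9.85 with IgG and 10.78 and 10.82 with the antibody, with no overlap, and rose by 0.91 (adjusted p = 2.00e-07, 1.88-fold). On the diet arrays it read 9.51 and 9.53 in wild type on regular diet, 9.08 and 9.39 in wild type on high fat diet, 9.38 and 9.31 in the knockout on regular diet, and 9.65 and 9.80 in the knockout on high fat diet. The knockout high fat arrays were the highest of the 8. Hk2 was higher there than in wild type on high fat diet by 0.49 (adjusted p = 0.00209) and rose with diet in the knockout by 0.38 (adjusted p = 0.0138), with an interaction of 0.67 (adjusted p = 0.0018) that was 0.40 under quantile normalization (adjusted p = 0.0238). The first of these was lost without wild-type array a (0.34, adjusted p = 0.0831) or knockout array b (0.42, adjusted p = 0.0564). The second was lost without knockout regular diet array b (0.34, adjusted p = 0.087) or high fat array b (0.30, adjusted p = 0.185) and under quantile normalization (0.20, adjusted p = 0.135). In wild type the diet difference was -0.29 (95% interval -0.51 to -0.07, adjusted p = 0.10), and it passed without high fat array b (-0.44, adjusted p = 0.0144). Hk2 is also a skeletal muscle gene, and its high groups were those with the high muscle sums. The part of muscle RNA in its level was not tested.

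With the high fat diet in wild type 4 of the 9 genes fell, Slc2a4, Pik3r1, Tbc1d4 and Irs2, and none rose. Of all 18194 genes 10.8% were called, 4.69% as higher and 6.11% as lower. The median log2 difference of the 9 was -0.29, against 0.02 over all genes. Of 109 other measured genes of the pathway, 6 rose and 12 fell, with a median of -0.09. Sh2b2, an adaptor that links the receptor to Cbl, fell by 1.07 (adjusted p = 3.23e-07), Gys2, a glycogen synthase, by 1.40 (adjusted p = 1.59e-10) and Mlxipl, the glucose-sensing factor ChREBP, by 0.72 (adjusted p = 3.37e-05). Ptprf and Grb7 rose by 0.83 (adjusted p = 6.32e-06) and 1.25 (adjusted p = 1.57e-06). Ptprf encodes a phosphatase and Grb7 an adaptor related to inhibitors of the receptor. Irs3, an adaptor of rodent fat, rose by 1.10 from 4.72 and 5.26 to 5.93 and 6.24 (adjusted p = 9.37e-05), values below the array medians. All 6 smooth muscle markers fell, with a median of -3.45, 4 of 16 skeletal muscle markers fell and none rose, and 4 of 12 macrophage markers rose and 1 fell. Among 10 adipocyte markers 1 rose and 2 fell (median -0.09). Among 7 epididymis markers 2 rose and none fell (median 0.07), with sums of 8.78 and 8.59 on regular diet and 11.2 and 11.42 on high fat diet. Their part in these differences was not tested.

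With the high fat diet in the knockout 5 of the 9 genes rose, Akt2, Irs1, Slc2a4, Insr and Hk2, and none fell, with 17.3% of all genes called, 11.5% higher and 5.82% lower. Their median was 0.38, against 0.00 over all genes. Of the 109 other pathway genes 26 rose and 6 fell. In the kinase arm 5 of 22 rose and none fell, among them Eif4ebp1, a translation brake controlled by mTOR, by 1.31 (adjusted p = 4.56e-10) and Pde3b, the phosphodiesterase through which insulin restrains lipolysis, by 1.05 (adjusted p = 5.78e-09). Cavin1, a coat protein of caveolae, rose by 1.16 (adjusted p = 5.91e-09) and Ppp1r3c, a glycogen-targeting subunit, by 1.28 (adjusted p = 1.58e-09), although its second probe set gave 0.44 (adjusted p = 0.0603). Igf1r, the receptor of insulin-like growth factor, fell by 0.83 (adjusted p = 4.04e-06). Beside these, 9 of 10 adipocyte markers rose (median 0.95), all 16 skeletal muscle markers rose (median 3.81) and all 7 epididymis markers fell (median -6.43). The sum of adipocyte markers was 15.77 and 15.75 on regular diet and 16.47 and 16.48 on high fat diet. The part of tissue make-up in these differences was not tested.

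On regular diet 6 of the 9 genes were lower in the knockout than in wild type, Pik3r1, Tbc1d4, Slc2a4, Akt2, Irs1 and Irs2, and none was higher, with 24% of all genes called, 8.4% higher and 15.6% lower. Over probe sets the SDs were 1.73 and 1.74 on the wild-type and 1.67 and 1.64 on the knockout arrays. In numbers the calls were 1528 higher and 2833 lower, against 2438 and 2572 under quantile normalization. That scaling moved Slc2a4 from -0.84 to -0.48 and Akt2 from -0.60 to -0.27, both still called, and Hk2, which was not called, from -0.17 to 0.11. The median of the 9 was -0.44, against 0.04 over all genes. Of the 109 other pathway genes 38 were lower and 6 higher. In the list of GLUT4 vesicle traffic 11 of 25 were lower and 1 higher. Its myosin Myo1c, which moves GLUT4 vesicles along actin, was at -1.39 (adjusted p = 6.06e-11) and Lrp1, a receptor carried in GLUT4 vesicles, at -1.07 (adjusted p = 1.32e-08). Cav1, the caveolae protein, was at -1.61 (adjusted p = 7.62e-13), Foxo1, the transcription factor that Akt keeps out of the nucleus, at -1.24 (adjusted p = 5.19e-10), and Slc2a3, which encodes the transporter GLUT3, at -1.2 (adjusted p = 1.93e-08). Among the inhibitors Sik2, a kinase of fat, was at -1.43 (adjusted p = 1.55e-11) and Rbp4, a retinol carrier linked to insulin resistance, at -1.35 (adjusted p = 1.51e-11), while Ptprf was higher by 1.2 (adjusted p = 3.51e-09). In the same comparison 9 of 10 adipocyte markers were lower (median -1.11), all 7 epididymis markers higher (median 6.59) and all 6 smooth muscle markers lower (median -3.08). Of the brown adipocyte markers 7 of 10 were higher (median 2.84), of the macrophage markers 8 of 12 were lower and 1 higher (median -0.72), and of the skeletal muscle markers 9 of 16 were higher and 3 lower (median 0.42). The sum of adipocyte markers was 16.51 and 16.57 in wild type. Their part in the lower levels was not tested.

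On high fat diet 3 of the 9 genes were higher in the knockout, Slc2a4, Hk2 and Irs1, and none was lower, against 10.8% of all genes called, 4.74% higher and 6.05% lower. The median of the 9 was 0.22, against -0.01 over all genes. Of the other pathway genes 9 were higher and 9 lower. Among the 12 hexokinases and glucose-sensing regulators 5 were higher and none lower, with Gys1, the glycogen synthase of muscle, at 1.28 (adjusted p = 1.3e-09) and Gys2 at 0.86 (adjusted p = 1.74e-06). Sh2b2 was higher by 0.79 (adjusted p = 4.6e-05), with 0.15 on its second probe set (adjusted p = 0.764), and Slc2a3 lower, at -0.89 (adjusted p = 9.76e-06). All 16 skeletal muscle markers were higher (median 4.36), while the adipocyte sums of 16.39 and 16.46 in wild type and 16.47 and 16.48 in the knockout were close. Among 10 adipocyte markers 1 was higher and 1 lower. Lep, which encodes leptin, read 11.53 and 11.74 in wild type and 9.3 and 9.3 in the knockout. Of the brown adipocyte markers 8 of 10 were higher (median 2.58), and of the macrophage markers 7 of 12 were lower (median -0.43). The part of these cell types in the differences was not tested.

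The diet difference was more positive in the knockout than in wild type for 6 of the 9 genes, and more negative for none, with 18.8% of all genes called, 12% more positive and 6.77% more negative. These were Slc2a4, Pik3r1, Tbc1d4, Irs1, Akt2 and Hk2. The median interaction of the 9 was 0.88, against -0.02 over all genes. Of the other pathway genes 30 were more positive and 7 more negative. Sh2b2 had 2.25 (adjusted p = 9.86e-11), Gys2 1.98 (adjusted p = 1e-10), and Grb7 and Ptprf -2.03 (adjusted p = 7.87e-08) and -1.80 (adjusted p = 1.81e-09). The second Sh2b2 probe set gave 0.64 (adjusted p = 0.0634), and for diet in the knockout 0.09 (adjusted p = 0.843). For Slc2a4, and among others for Gys2, Ptprf and Grb7, the 2 diet differences had opposite signs and both passed. In the same test all 16 skeletal muscle, all 6 smooth muscle and 9 of 10 adipocyte markers were more positive and all 7 epididymis markers more negative. Their part in these values was not tested.

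**Figure D4:**
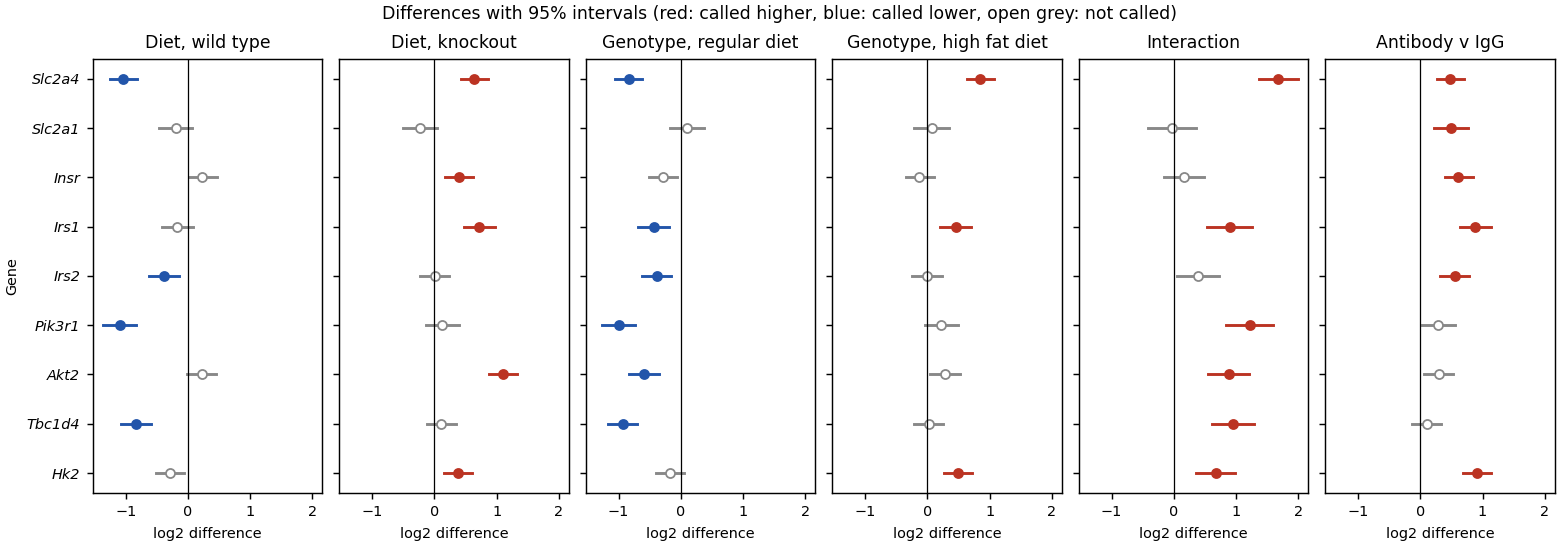
Log2 difference (horizontal axes) with 95% intervals from limma for the 9 genes (vertical axis) in the 6 comparisons, filled red where called higher, filled blue where called lower and open grey where not called. Slc2a4 passed in all 6 comparisons, below 0 for diet in wild type and for genotype on regular diet and above 0 in the other 4.

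With the antibody 6 of the 9 genes rose, Hk2, Irs1, Insr, Irs2, Slc2a1 and Slc2a4, and none fell, with 24.3% of all genes called, 11.7% higher and 12.6% lower. The median of the 9 was 0.49, against 0.00 over all genes. Of the other pathway genes 15 rose and 14 fell, with a median of -0.04. Slc2a3 rose from 7.84 and 7.71 with IgG to 9.35 and 9.41 with the antibody, by 1.6 (adjusted p = 1.17e-10). Socs3, a feedback inhibitor of cytokine and insulin receptors, rose by 1.21 (adjusted p = 1.13e-08), Gys1 by 1.15 (adjusted p = 5.29e-09), Mlxipl by 1.07 (adjusted p = 2.56e-08) and Sh2b2 by 0.96 (adjusted p = 1.13e-06). Irs3 fell by 0.90, from 8.61 and 8.54 to 7.69 and 7.66 (adjusted p = 0.000522). Hk3, a hexokinase of blood cells, fell by 1.62 (adjusted p = 4.4e-11). Beside these, 11 of 12 macrophage markers fell (median -1.71), and their sum was 15.43 and 15.42 with IgG and 14.10 and 14.08 with the antibody. All 16 skeletal muscle markers rose (median 5.63) and 9 of 10 brown adipocyte markers rose (median 2.24). Among 10 adipocyte markers 4 rose and 1 fell (median 0.1), and their sum was 16.50 and 16.55 with IgG and 16.61 and 16.58 with the antibody. Lep, which encodes leptin, read 12.43 and 12.67 with IgG and 10.62 and 10.71 with the antibody. The part of these cell types in the differences was not tested.

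**Figure D5:**
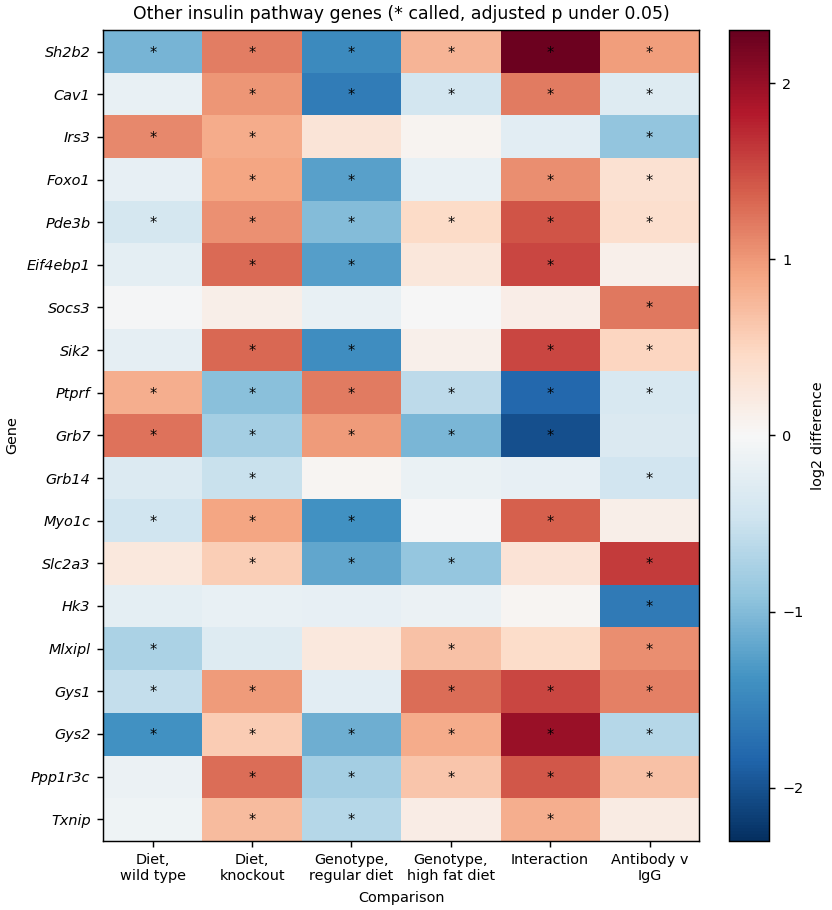
Log2 difference (colour) of 19 other insulin pathway genes (rows) in the 6 comparisons (columns), with an asterisk where limma called the gene. Sh2b2, Ptprf and Grb7 changed sign between diet in wild type and diet in the knockout, and Slc2a3 was lower in the knockout on both diets but higher with the antibody.

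The genotype comparison on high fat diet and the antibody comparison share no array, and their calls were set side by side. The 3 genes of the 9 that were higher in the knockout on high fat diet, Hk2, Irs1 and Slc2a4, also rose with the antibody, which is 100% of the first list and 50% of the second. Of all genes, 559 were higher in both, which is 64.8% of the 863 higher in the knockout and 26.2% of the 2135 higher with the antibody. For the other pathway genes 5 were higher in both, Gys1, Mlxipl, Pde3b, Ppp1r3c and Sh2b2, which is 55.6% and 33.3% of the lists. The 4 lower in both, Cav1, Cavin1, Ptprf and Stxbp3, were 44.4% and 28.6%, against 38.4% and 18.4% over all genes. For genotype the second probe set gave -0.13 for Cavin1 (adjusted p = 0.775), -0.09 for Stxbp3 (adjusted p = 0.807) and 0.15 for Sh2b2 (adjusted p = 0.764). For the antibody it gave -0.28 for Ptprf (adjusted p = 0.213) and -0.3 for Stxbp3 (adjusted p = 0.0747). Some of the calls in both comparisons also rested on single arrays, as did those of Irs1 and Hk2 for genotype. The genotype call was lost for Cav1 without knockout array a or b (adjusted p = 0.0643 and 0.0516), for Cavin1 without wild-type array b or knockout array a (adjusted p = 0.111 and 0.277), and for Stxbp3 without wild-type array a or b or knockout array a (adjusted p = 0.178, 0.147 and 0.548). The antibody call was lost for Pde3b without array b of IgG or antibody (adjusted p = 0.0607 and 0.0663), and for Ptprf without IgG array a or either antibody array (adjusted p = 0.17, 0.15 and 0.0763). Gys2 and Slc2a3 went opposite ways, Gys2 at 0.86 in the knockout and -0.66 with the antibody, and Slc2a3 at -0.89 and 1.6. Both comparisons also had all 16 skeletal muscle markers higher, 8 and 9 of 10 brown adipocyte markers higher and 7 and 11 of 12 macrophage markers lower, and the part of these cell types was not tested.

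The genes with levels most like each of the 9 were found by Pearson correlation over the 12 arrays after centring on each experiment's mean, among genes with an SD of at least 0.3. The arrays share groups and tissue make-up, and these values are a description. For Slc2a4 they were Adhfe1 (r = 0.985), Tpm1 (0.979) and Pdlim3 (0.96). For Hk2 they were Cytl1 (r = 0.986) and Ppp2r3a (0.979), for Irs1 Tef (0.979), Ces1d (0.968) and Trap1 (0.968), and for Irs2 Pcp4l1 (0.966). Tbc1d4 lay closest to Niban1 (r = 0.983), Ank1 (0.983) and Pcp4 (0.982), Pik3r1 to Ppp1r12b (0.956), Akt2 to Psmd4 (0.971), Insr to Fmo5 (0.963) and Slc2a1 to Nrbp2 (0.937). Among the 9 themselves, Irs1 with Hk2 (0.91) and Pik3r1 with Tbc1d4 (0.90) were the closest pairs.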

How the data were processed

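Each of the 12 mouse samples had 1 Affymetrix array. The authors deposited log2 expression values, which came from RMA in Partek per the submitters' processing notes. RMA corrects background, applies quantile normalization and sums up the probes of a set. The platform annotation gave 34958 of 45101 probe sets a single gene, 932 several and 9211 no gene. Each of 18194 genes took its brightest probe set, and 18033 gene IDs matched the table of GRCm38.p6.

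Groups were fitted over all 12 arrays in R 4.3.3 with limma 3.58.1 (group means, contrasts, eBayes with an intensity trend, 6 residual and 20.4 prior degrees of freedom), and p-values were two-sided, adjusted after Benjamini-Hochberg over the 18194 genes, with 0.05 as the threshold. The model was tested on simulated data. The number of arrays limits the precision. Arrays a and b of a group correlated at r = 0.992 to 0.996.

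The genes, the pathway lists and the marker lists were chosen with earlier results of these data known. Of the other pathway genes, up to 2 called genes in each direction per list and comparison could be named, plus preset genes such as Irs3, Slc2a3 and Foxo1, and the text names part of them. Some genes of the pathway lists were not analysed here. Marker sums are log2 of summed linear values. Alternatives were other eBayes settings, array weights, other scalings, other probe sets, fewer genes or arrays, a replicate block, testing against a change of 1.2-fold, and omitting each array in turn, where the lone array of a group is assumed to vary like the other groups.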

Additional observations from a re-analysis of the deposited data

Results flagged for a closer look

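The diet differences of these genes differed between knockout and wild type by a test of the interaction itself (limma, adjusted over all genes). Among the 9 genes the interactions were 1.68 for Slc2a4, 1.22 for Pik3r1, 0.95 for Tbc1d4, 0.90 for Irs1, 0.88 for Akt2 and 0.67 for Hk2. That of Tbc1d4 was not called on its second probe set (0.28).

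Among receptors and adaptors they were 2.25 for Sh2b2, 1.19 for Cav1 and -1.07 for Igf1r. In the kinase arm they were 1.54 for Eif4ebp1, 1.44 for Pde3b and 1.07 for Foxo1. Among inhibitors they were 1.53 for Sik2, 1.44 for Rbp4, -1.80 for Ptprf and -2.03 for Grb7. In GLUT4 vesicle traffic they were 1.37 for Myo1c, 1.03 for Lrp1, -0.54 for Sort1 and -0.56 for Rab4a. The second Sort1 probe set was called the other way, at 0.44 (adjusted p = 0.0368). That of Rab4a (adjusted p = 0.0478) was not called with arrays centred on their medians (-0.5, adjusted p = 0.0882) or on its second probe set (-0.41, adjusted p = 0.238). Slc2a5, a fructose transporter, had -0.55, and -0.44 without wild-type high fat array a. It was no longer called there. The same held without array b of wild type or knockout on regular diet, or without either knockout high fat array. It was not called against a change of 1.2-fold (adjusted p = 0.324). Among glucose-sensing and glycogen genes they were 1.98 for Gys2, 1.53 for Gys1 and 0.83 for Txnip. All 7 epididymis markers were more negative and all 16 skeletal muscle markers more positive in the same test, and their part in these values was not tested.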

How the results depend on the processing

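Of 30 calls among the 54 results of the 9 genes, 15 held under every alternative, 8 were lost when 1 array was left out, and none changed direction. A minimum of 1.2-fold left 3 of the 9 genes called for diet in the knockout, 1 for genotype on high fat diet and 3 with the antibody, and in the order of the comparisons above (diet in wild type, diet in the knockout, genotype on regular and on high fat diet, interaction, antibody) 757, 1251, 2014, 699, 1933 and 1727 genes of all. Tests of every probe set on its own called 6618 probe sets for genotype on regular diet and 7573 for the antibody. These are counts of probe sets, of which 34958 named a single gene. They cannot be set beside the counts among the 18194 genes. The second brightest probe set, which 6 of the 9 genes have, gave 2, 2 and 3 called for diet in wild type, diet in the knockout and genotype on regular diet, 3 for the interaction and 3 for the antibody. Leaving out 1 array gave 3 to 4, 3 to 4, 5 to 5, 1 to 3, 6 to 6 and 5 to 6 of the 9 genes, and 1296 to 1679, 2035 to 2710, 3281 to 3879, 1318 to 1542, 2736 to 3433 and 3157 to 3530 of all genes. Quantile normalization turned the split for genotype on regular diet from 1528 higher and 2833 lower to 2438 and 2572.

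Among values called with one setting or the other, those that changed direction were of Sort1 for genotype on regular diet (-0.11 with the mean of probe sets, -0.38 with the second) and for the interaction (0.00 and 0.44), and, with the second probe set, Mtor for genotype on high fat diet (-0.15) and Grb14 (0.03) and Trib3 (-0.44) for the antibody. Of the 9 genes, 10 values that were not called changed sign under an alternative, among them Insr for genotype on regular diet and for the interaction (0.16 and -0.27 with the second probe set). The cause was not tested.

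Whether the letters a and b pair arrays across groups is not stated in the labels. Deviations of same-letter arrays correlated only weakly between groups, at -0.161 to 0.169. With so few arrays a group, these values cannot decide whether a pairing exists. With the letter as a replicate block, 4, 5, 6, 3, 6 and 6 of the 9 genes and 1959, 3128, 4358, 1947, 3408 and 4412 of all genes were called.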

Other observations

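Several glucose transporters of other tissues read near or below the array medians. Slc2a2, which encodes GLUT2 of liver and islets, read 5.03 and 5.16 with IgG and 4.14 and 4.32 with the antibody, a fall of 0.87 (limma adjusted p = 0.000163), beside hepatocyte markers of which 5 of 5 fell. Its level was also higher in the knockout on regular diet by 0.61 (limma adjusted p = 0.00523). Txnip, an inhibitor of glucose uptake that responds to glucose itself, was lower in the knockout on regular diet, at -0.66 (limma adjusted p = 2.87e-05), and rose with the high fat diet in the knockout by 0.73 (limma adjusted p = 1.06e-05). With the antibody it differed by 0.18 (limma adjusted p = 0.256), and by 0.22 under quantile normalization (limma adjusted p = 0.016). Trib3, an inhibitor of Akt, was not called in any of the 6 comparisons on its brightest probe set. Its second probe set was higher with the high fat diet in wild type by 0.55 (limma adjusted p = 0.0105) and in the knockout on regular diet by 0.39 (limma adjusted p = 0.0497), and lower with the antibody, at -0.44 (limma adjusted p = 0.0258).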
